A study of Mus musculus with 12 samples.

Results

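The 39 genes described here make the machinery of mitosis and cytokinesis: the cyclins and kinases that drive a cell into division, the chromosomal passenger complex, the spindle checkpoint, the kinetochore, the spindle motors, the proteins of the cleavage furrow and those that shape mitotic chromosomes. They were chosen as a list of gene symbols, each matched to its Ensembl identifier, and the choice used no measured value of these libraries, although earlier results of the data were known. All 39 were found among the 55604 genes counted, and all 39 were among the 16406 genes with enough reads to be tested.

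The study sequenced mRNA libraries, made with Illumina TruSeq reagents, of mouse bone marrow-derived macrophages that had taken up dead melanoma cells. Bone marrow of C57BL/6 mice was grown in M-CSF, the macrophage growth factor, at 20 ng/ml until day 7. The 12 libraries fall into 3 groups of 4, which the design text calls independent experiments. One group was macrophages alone. The second was loaded with control corpses of the mouse melanoma line B16-F10, and the third with corpses of the same line overexpressing STC1 (stanniocalcin-1, a secreted glycoprotein), written STC1OE. Corpses were added at 1 macrophage to 5 corpses, and after 20 h those that had not bound were washed off. Age and sex of the mice, whether each library came from another mouse, and the way the tumour cells were killed are not given in the sources used here. In these counts, RNA left from bound or engulfed corpses cannot be told apart from macrophage RNA of the same gene.

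A dividing cell enters mitosis when cyclin B and its kinase Cdk1 become active, and the spindle then captures each chromosome at its kinetochore. The spindle checkpoint holds the cell until every kinetochore is attached, after which the anaphase-promoting complex marks cyclin B and securin for destruction and the cell splits. Many of these genes are transcribed late in the cell cycle under B-Myb, MuvB and Foxm1. These act through a promoter element named the cell cycle genes homology region. Promoters of such genes often hold CCAAT boxes as well. Bone marrow-derived macrophages still divide in M-CSF, so their RNA holds these transcripts.

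The libraries held between 28488441 and 39981074 counts assigned to genes, so that the 3 counts that a count of 0 allows correspond to 0.075 to 0.105 CPM. CPM are counts scaled to a common library size by the trimmed mean of M values (TMM), and floors of this kind cover counting error only. All 10 macrophage markers were found in every group. Their summed level was 16783.3 CPM in macrophages alone, 14571.8 with control corpses and 14274.2 with STC1OE corpses. By the edgeR test described below (adjusted p under 0.05), 3 of the 10 were higher and 7 lower with either kind of corpse. Of all genes tested, 19.7% were higher and 20.5% lower with control corpses, and 21.4% and 22.4% with STC1OE corpses. Stc1 itself lay between 0 and 0.232 CPM in the 12 libraries, too low to check the labels. Of 18 melanocyte markers, 15 had a mean under 1 CPM in macrophages alone, and Tyr, Oca2, Pax3, Cdh19 and Gjb2 were at 0 there. The summed level of those 15 was 1.37 to 1.87 CPM in macrophages alone, 11 to 14.5 CPM with control corpses and 4.4 to 6.13 CPM with STC1OE corpses. All 18 together averaged 15780.7, 22061.1 and 24183.1 CPM in the order macrophages alone, control corpses and STC1OE corpses, nearly all of it Gpnmb, which macrophages express too, at 15609.7, 21933.4 and 24063.5 CPM. Reads that did not align made up 11.38 to 14.01% of macrophages alone, 10.81 to 11.54% with control corpses and 14.4 to 17.77% with STC1OE corpses. In libraries 1 to 4 of macrophages alone the share was 13.41, 14.01, 11.88 and 11.38%. With STC1OE corpses it was 14.62, 14.4, 17.77 and 17.53%, so libraries 1 and 2 stood apart from 3 and 4 in both groups, in opposite directions. Markers of other marrow cells summed to different levels: 8 neutrophil markers added up to 181.6 CPM in macrophages alone, 94.5 with control corpses and 88.1 with STC1OE corpses, mostly Mmp8 at 166.7, 90.3 and 83.8 CPM, with Ly6g at 0 in all 12 libraries. The summed level of 10 marrow progenitor markers was 5.04, 2.94 and 2.62 CPM in the same order, and of 6 B cell markers 15, 4.83 and 4.5 CPM, mostly Ighm at 12.5, 2.55 and 2.5 CPM. By the same edgeR test, all 5 neutrophil markers tested were lower with either kind of corpse, against 20.5% and 22.4% of all genes tested. Their median log2 fold changes were -2.33 and -2.61. Markers with a mean under 1 CPM in macrophages alone were also summed. The sums were 0.165, 0.163 and 0.133 CPM for 3 of neutrophils and 0.419, 0.376 and 0.353 CPM for 4 of B cells. Of these 3 neutrophil markers, Ly6g and Retnlg were at 0 in macrophages alone. The sum of the 3 was too near the floor to show a difference. For 6 of fibroblasts and stroma the sums were 1.84, 1.85 and 1.62 CPM, and all 8 of that list summed to 21, 15.9 and 15.3 CPM. The markers under 1 CPM of marrow progenitors, dendritic cells and T and NK cells had lower mean sums with corpses. They summed to 2.27, 1.02 and 1.07 CPM for 9 of marrow progenitors and 0.986, 0.527 and 0.503 CPM for 5 of dendritic cells. For 6 of T and NK cells the sums were 0.459, 0.317 and 0.214 CPM. The T and NK cell markers summed to 5.82, 5.97 and 6.58 CPM and the dendritic cell markers to 2.08, 1.6 and 1.82 CPM. The part of any of these in the results on mitosis genes was not tested. In bulk RNA, fewer dividing cells and less mitotic RNA in each cell cannot be told apart.

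Taken as a sum, mitotic RNA was lowest where macrophages had been given STC1OE corpses. The 39 genes added up to 633.2, 586.1, 552.8 and 584.0 CPM in libraries 1 to 4 of macrophages alone. They added up to 617.7, 535.8, 580.8 and 571.8 CPM with control corpses, and to 514.5, 459.6, 493.0 and 498.5 CPM with STC1OE corpses. Every STC1OE library lay below every library of both other groups, while those 2 groups overlapped. The means were 589.0 ± 33.2, 576.5 ± 33.6 and 491.4 ± 23.1 CPM (SD, n = 4 each). The sum is weighted towards genes with many reads: without Mki67, Top2a, Smc4, Smc2 and Incenp it was 292.4 ± 19.2, 286.6 ± 17.6 and 245.6 ± 10.5 CPM (SD, n = 4 each). The 30 S phase genes (replication licensing, nucleotide supply and the replication fork) had their highest mean sum with control corpses. It was 1524.8 ± 33.4 CPM in macrophages alone, 1718.7 ± 84.3 with control corpses and 1572.7 ± 57.9 with STC1OE corpses (SD, n = 4 each). Macrophages alone (1479.7 to 1557.3 CPM) and STC1OE corpses (1503.3 to 1644.4 CPM) overlapped, and their order depended on the scaling. Per total of assigned counts, the S phase means were 1558.5, 1726.8 and 1528.2 CPM in the same group order.

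**Figure D1:**
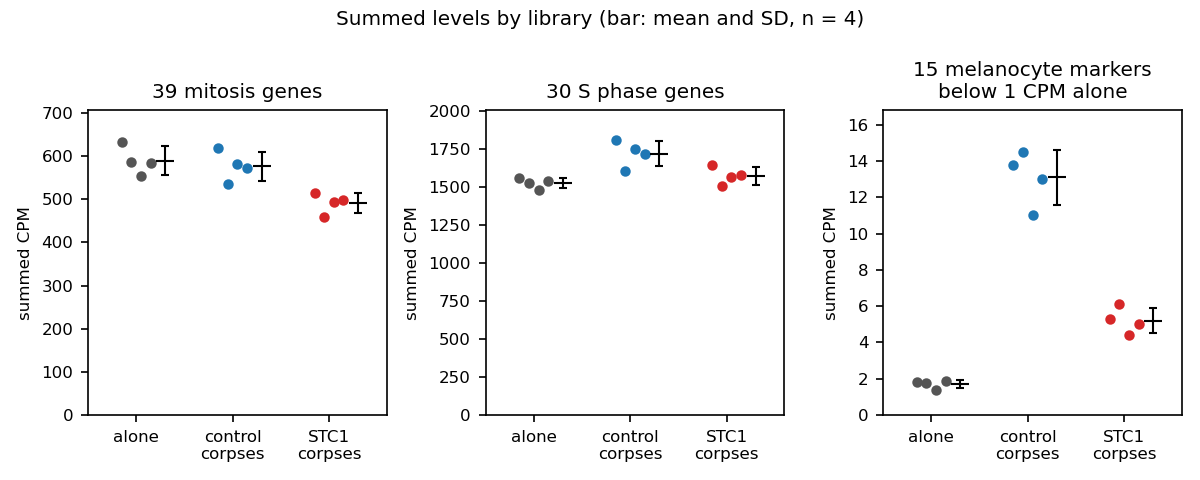
Summed CPM (y axis) of the 39 mitosis genes, of 30 S phase genes and of 15 melanocyte markers under 1 CPM in macrophages alone, by group (x axis). Axis labels shorten STC1OE to STC1; points are libraries 1 to 4 from the left, and the bar to their right is the mean with its SD; the mitosis sum is between 459.6 and 514.5 CPM in the STC1OE libraries and at least 535.8 CPM in the 8 others.

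Gene by gene, the mitotic genes were split with control corpses, and many were lower with STC1OE corpses. With control corpses, 6 members were higher and 8 lower than in macrophages alone by edgeR's quasi-likelihood test with Benjamini-Hochberg adjustment over all genes tested (adjusted p below 0.05). Of all genes tested, 19.7% were higher and 20.5% lower in that comparison, so the members' shares were near the background. The members that rose were Ccnb1, Cdk1, Incenp, Mad2l1, Ttk and Smc2, and those that fell were Ccnb2, Cdc20, Ube2c, Cenpa, Cenpf, Nusap1, Kif20a and Smc4. A negative log2 fold change was seen for 19 of 39, against 50.2% of all genes tested, with a median of 0.04 against -0.00. All 4 control-corpse libraries lay below all 4 of macrophages alone for 8 members and above them for 2, against 18.9% and 18.3% of all genes tested. The count of higher members was 2 without control library 1, 3 without control library 4 and 2 without macrophages-alone library 3, and that of lower members was 5 without macrophages-alone library 1. DESeq2 did not call Ccnb1 and Kif20a.

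With STC1OE corpses, 21 of 39 members were lower than in macrophages alone and 0 were higher, against 22.4% lower and 21.4% higher among all genes tested. Negative log2 fold changes made up 35 of 39, against 53.7% of all genes tested, with a median of -0.22 against -0.03. The 21 were Ccnb2, Aurkb, Birc5, Bub1b, Cdc20, Ube2c, Cenpa, Cenpe, Cenpf, Ndc80, Nuf2, Spc25, Nusap1, Kif20a, Kif23, Prc1, Anln, Cep55, Top2a, Smc4 and Mki67. All 4 STC1OE libraries lay below all 4 of macrophages alone for 16 members and above them for 0, against 20.2% and 19.7% of all genes tested. DESeq2 also found 0 members higher, and 17 lower, without Bub1b, Cep55, Kif23 and Nuf2.

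The 2 kinds of corpse also differed from each other. Set directly against control corpses, macrophages with STC1OE corpses had 14 of 39 members lower and 0 higher, where 2.12% of all genes tested were lower and 3.33% higher. All 39 had a negative log2 fold change, against 52.1% of all genes tested, with a median of -0.23 against -0.01. The 14 were Ccna2, Ccnb1, Cdk1, Aurkb, Bub1b, Mad2l1, Ttk, Cenpf, Ndc80, Nusap1, Cep55, Smc2, Smc4 and Mki67. All 4 STC1OE libraries lay below all 4 control-corpse libraries for 16 members and above them for 0, against 4.85% and 5.86% of all genes tested. DESeq2 found 16 lower and 0 higher, and gave no adjusted p for 2 of the 39. Of the 11060 genes to which it gave one, 265 were lower and 768 higher. The count of 14 depended on single libraries: it was 7, 9 and 8 without STC1OE library 2, 3 and 4, and 7, 7 and 9 without control library 1, 3 and 4. It was 2 without STC1OE libraries 3 and 4, those with most unaligned reads, a setting chosen after seeing the data, where the median log2 fold change was again -0.23 and 39 of 39 were negative. In this comparison both the melanocyte markers and the share of unaligned reads differed between the groups, as given above, and their part in it was not tested.

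The comparisons of corpse groups with macrophages alone share those 4 libraries, and the comparison of corpse groups shares its libraries with both. The group means can still be placed in order. STC1OE corpses gave the lowest mean for 35 of 39 members, and macrophages alone for the other 4. The highest mean was that of control corpses for 20 members and that of macrophages alone for 19.

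**Figure D2:**
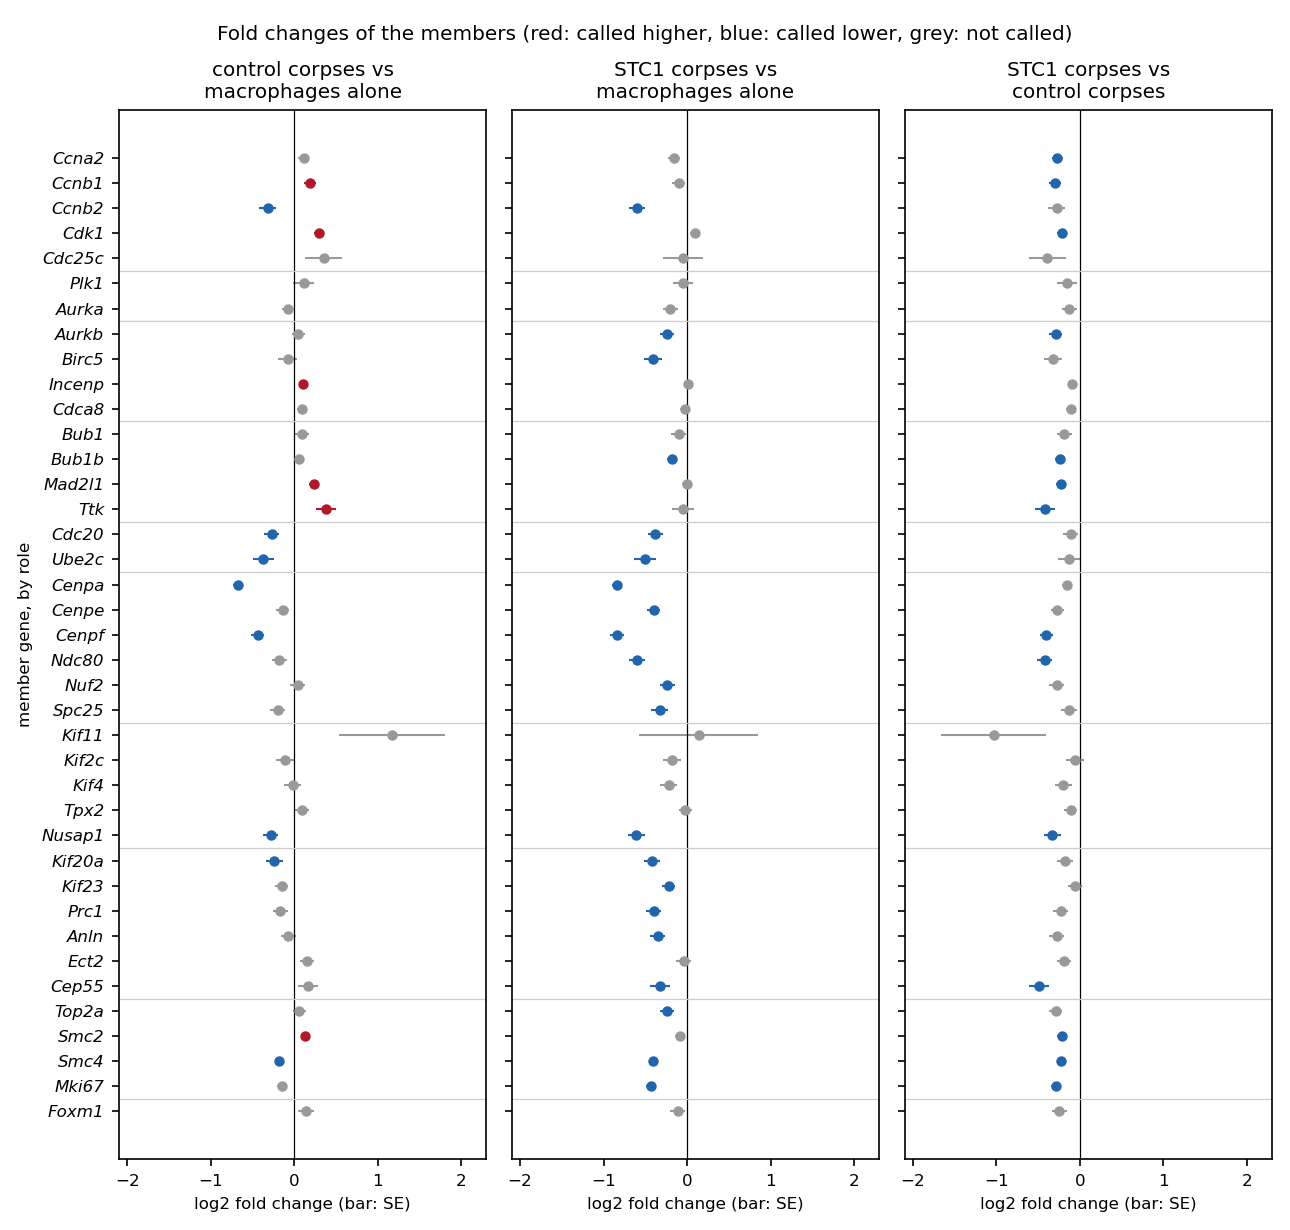
Log2 fold change of each member (y axis, ordered by role) in 3 comparisons, from edgeR's quasi-likelihood fit, with its SE as a bar. Red points are members called higher (6, 0 and 0 from left to right), blue points members called lower (8, 21 and 14), and grey points did not pass the test; all 39 points of the right panel lie left of 0.

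The promoters of these genes carry the elements known from late cell cycle genes, and 5 of them are printed to show how genes that moved differently compare in sequence. RefSeq promoter sequences of 300 bases (250 before the start site and 50 after, build GRCm38.p6) were found for 31 of 39 members, 34 promoters in all. The core of the cell cycle genes homology region, searched as TTTGAA on both strands, was present in 24 of 31 members (77.4%), against 20.2% of all 27025 genes with a promoter and 14.6% of the genes tested. The less common form TTCGAA was present in 9.68% of members against 1.8% of all genes. CCAAT was present on either strand in 74.2% of members and 41.1% of all genes, and at least 2 copies in 51.6% and 13.3%. CCAAT and TTTGAA can share 1 end base where they adjoin. Of the S phase genes, 18.2% held TTTGAA and 63.6% CCAAT, while 9.09% held TTCGAA and 40.9% at least 2 copies of CCAAT. Among the members lower with STC1OE corpses than in macrophages alone, 77.8% of 18 held TTTGAA, and among the members not called in that comparison 76.9% of 13 did. CCAAT was present in 66.7% of the former and 84.6% of the latter, and at least 2 copies in 44.4% and 61.5%.

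The promoters printed are those of Cenpa and Cenpf, which fell most with corpses, of Nusap1, which fell with both kinds of corpse and holds none of the motifs in this window, and of Ttk and Cdk1, which rose with control corpses. They were picked after their values were seen. Each is given 5′ to 3′ on the gene's own strand, and capitals mark the CCAAT boxes and the homology region cores, on whichever strand they lie.
Cenpa, chr5:30666636-30666935, plus strand: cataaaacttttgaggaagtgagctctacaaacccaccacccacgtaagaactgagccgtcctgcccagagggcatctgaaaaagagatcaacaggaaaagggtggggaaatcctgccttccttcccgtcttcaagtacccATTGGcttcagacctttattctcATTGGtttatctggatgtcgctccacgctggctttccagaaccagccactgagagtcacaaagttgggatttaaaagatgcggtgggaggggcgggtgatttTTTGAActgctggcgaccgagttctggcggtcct
Cenpf, chr1:189688037-189688336, minus strand: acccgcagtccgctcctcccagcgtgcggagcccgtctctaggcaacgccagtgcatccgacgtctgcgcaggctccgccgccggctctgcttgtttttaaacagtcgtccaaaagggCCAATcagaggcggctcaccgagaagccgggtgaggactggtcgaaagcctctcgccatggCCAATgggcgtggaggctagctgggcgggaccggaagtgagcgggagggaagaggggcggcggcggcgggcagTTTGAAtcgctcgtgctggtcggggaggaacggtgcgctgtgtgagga
Nusap1, chr2:119618048-119618347, plus strand: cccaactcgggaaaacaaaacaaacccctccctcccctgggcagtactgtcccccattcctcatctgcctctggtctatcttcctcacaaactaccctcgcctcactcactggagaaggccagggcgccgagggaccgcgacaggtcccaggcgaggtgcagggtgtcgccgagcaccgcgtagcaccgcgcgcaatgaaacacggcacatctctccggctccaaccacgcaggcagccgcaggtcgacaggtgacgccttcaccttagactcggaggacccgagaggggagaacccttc
Ttk, chr9:83834439-83834738, plus strand: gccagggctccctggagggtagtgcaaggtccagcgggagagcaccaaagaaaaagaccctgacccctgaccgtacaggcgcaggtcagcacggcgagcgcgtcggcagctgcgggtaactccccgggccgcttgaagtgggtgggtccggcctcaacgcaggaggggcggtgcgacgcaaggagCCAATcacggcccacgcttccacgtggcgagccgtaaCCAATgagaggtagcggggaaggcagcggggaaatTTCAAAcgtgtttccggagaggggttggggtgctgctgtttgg
Cdk1, chr10:69352863-69353162, minus strand: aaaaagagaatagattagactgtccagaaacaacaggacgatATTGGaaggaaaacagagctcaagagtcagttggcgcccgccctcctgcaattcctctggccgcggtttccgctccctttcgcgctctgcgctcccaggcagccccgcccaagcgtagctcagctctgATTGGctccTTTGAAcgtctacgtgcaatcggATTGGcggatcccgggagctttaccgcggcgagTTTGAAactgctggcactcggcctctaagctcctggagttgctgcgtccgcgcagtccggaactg
In Cenpa, Cenpf and Ttk the TTTGAA element begins 16, 2 and 7 bases after the start site, with a pair of CCAAT boxes upstream, at 109 and 86, 132 and 71, and 65 and 28 bases before it. Cdk1 has 3 CCAAT boxes and 2 TTTGAA elements before its start site, at 71 and 15 bases. Cenpa and Cenpf, which fell with both kinds of corpse, and Ttk and Cdk1, which rose with control corpses, hold both kinds of element. Nusap1, which also fell, holds neither. The relation of the elements to the changes was not tested. A match is a description of these letters and is no evidence of binding.

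Of Cdk1 and the cyclins Ccna2, Ccnb1 and Ccnb2, control corpses had Cdk1 and Ccnb1 higher and Ccnb2 lower than macrophages alone, and between the corpses all but Ccnb2 were called lower with STC1OE. Cdk1, the kinase that drives mitotic entry (chr10:69335146-69352938, GRCm38), stood at 17.7, 16.5, 14.7 and 17.7 CPM in macrophages alone, at 22, 19.1, 21.2 and 19.8 CPM with control corpses and at 18.1, 17, 16.8 and 18.8 CPM with STC1OE corpses. All 4 control-corpse libraries lay above all 8 others, and the STC1OE libraries overlapped macrophages alone. Its log2 fold change was 0.30 ± 0.06 (SE) for control corpses against macrophages alone (edgeR adjusted p = 9.14e-05) and -0.21 ± 0.06 for STC1OE against control corpses (edgeR adjusted p = 0.026). The second call was lost without STC1OE library 2 or 3 or control library 1 or 3. Ccnb1, which encodes cyclin B1, Cdk1's partner, rose from 7.93 ± 0.482 to 9.06 ± 0.404 CPM (SD, n = 4) with control corpses and was at 7.36 ± 0.492 CPM with STC1OE corpses. It was higher by 0.19 ± 0.07 (SE) in the first comparison (edgeR adjusted p = 0.0332) and lower by a log2 fold change of -0.30 ± 0.07 between the corpses (edgeR adjusted p = 0.0132), and the first of these calls was lost without control library 1 or 4, or without macrophages-alone library 3 or 4.

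Ccnb2, for cyclin B2, went down with both kinds of corpse. It averaged 4.58 ± 0.249 CPM in macrophages alone, 3.67 ± 0.217 with control corpses and 3.01 ± 0.315 with STC1OE corpses (SD, n = 4). Each corpse group lay below macrophages alone in all 4 libraries, with log2 fold changes of -0.32 ± 0.10 and -0.60 ± 0.10 (SE; edgeR adjusted p = 0.0095 and 1.36e-05). Ccna2, for cyclin A2, which acts from S phase into early mitosis, was lower with STC1OE than with control corpses, at 12.2 ± 1.51 against 14.7 ± 1.06 CPM, and stood at 13.6 ± 0.833 CPM in macrophages alone (SD, n = 4). That call was lost without any one of STC1OE libraries 2, 3 and 4 or control libraries 1, 3 and 4. Cdc25c, the phosphatase that activates Cdk1, was scarce, at 0.544 to 1.07 CPM over the 12 libraries, and passed in no comparison.

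The Polo and Aurora A kinases, which build the spindle poles, passed in no comparison. Aurka lay at 9.01, 6.97, 7.63 and 7.97 CPM in macrophages alone, at 7.56, 6.87, 7.65 and 8.05 CPM with control corpses and at 7.59, 7.17, 6.19 and 6.5 CPM with STC1OE corpses, and the 3 groups overlapped. Plk1 averaged 3.92 ± 0.229, 4.22 ± 0.769 and 3.78 ± 0.428 CPM in the same order (SD, n = 4).

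The chromosomal passenger complex corrects faulty attachments and then moves to the midzone, with Aurora B as its kinase, Incenp as its scaffold and survivin (Birc5) and borealin (Cdca8) as its targeting arm. Of its 4 subunits, 1 was higher with control corpses than in macrophages alone, against 19.7% of all genes tested. With STC1OE corpses 2 were lower than in macrophages alone, against 22.4% of all genes tested. Between the corpses 1 was lower with STC1OE, against 2.12%. Incenp, with the most reads of the 4, was at 40.1, 42, 40 and 39.8 CPM in macrophages alone, at 45.8, 42.5, 41.9 and 43.6 CPM with control corpses and at 40.3, 38.6, 41.2 and 42.7 CPM with STC1OE corpses. Control corpses raised it by a log2 fold change of 0.10 ± 0.04 (SE; edgeR adjusted p = 0.0275), with a slight overlap of the groups, and the call was lost without control library 1 or 4 or macrophages-alone library 3 or 4. Aurkb was lower with STC1OE corpses, at 7.06 ± 0.479 CPM, than with control corpses (8.61 ± 0.531) or in macrophages alone (8.32 ± 0.713; SD, n = 4), with edgeR adjusted p of 0.0248 and 0.0155. Both calls were lost without STC1OE library 2 or 3, that against control corpses also without STC1OE library 4 or control library 1 or 3, and that against macrophages alone without its library 1. Birc5 fell from 5.24 ± 1 CPM in macrophages alone to 3.94 ± 0.305 CPM with STC1OE corpses (SD, n = 4; edgeR adjusted p = 0.00357), where macrophages alone ranged from 4.27 to 6.49 CPM. Cdca8 averaged 10.4 ± 0.182, 11 ± 0.711 and 10.2 ± 0.541 CPM in macrophages alone, control corpses and STC1OE corpses, and passed in no comparison.

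In the spindle checkpoint, 2 of 4 members were higher with control corpses than in macrophages alone, against 19.7% of all genes tested. Between the corpses 3 of 4 were lower with STC1OE, against 2.12%. Mad2l1, which encodes Mad2, the inhibitor of Cdc20, stood at 14.3, 13.2, 13 and 13.1 CPM in macrophages alone, at 15.1, 15.6, 15.6 and 16.6 CPM with control corpses and at 14, 12.3, 13.3 and 14.2 CPM with STC1OE corpses. Every control-corpse library lay above every library of the other groups, which had the same mean of 13.4 CPM. The log2 fold change was 0.23 ± 0.06 (SE) for control corpses against macrophages alone and -0.23 ± 0.06 for STC1OE against control corpses (edgeR adjusted p = 0.00131 and 0.0147). The second call was lost without STC1OE library 2 or 3 or control library 4.

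Ttk, the Mps1 kinase that starts checkpoint signalling, showed the same order with more spread. It was at 4.25, 3.3, 2.87 and 3.53 CPM in macrophages alone, at 5.52, 3.48, 4.51 and 4.47 CPM with control corpses and at 3.55, 3.47, 3.21 and 3.22 CPM with STC1OE corpses. Control library 2 overlapped the other groups. Ttk had the largest called rise of the members with control corpses, a log2 fold change of 0.38 ± 0.12 (SE; edgeR adjusted p = 0.0144), lost without control library 1 or macrophages-alone library 3. Between the corpses it was -0.42 ± 0.12 (edgeR adjusted p = 0.0377), and that call was lost without any one of STC1OE libraries 2, 3 and 4 or control libraries 1, 3 and 4. Bub1b, for the checkpoint protein BubR1, averaged 13.1 ± 1.36 CPM in macrophages alone, 13.6 ± 0.525 with control corpses and 11.6 ± 0.421 with STC1OE corpses (SD, n = 4). All 4 STC1OE libraries lay below the 8 others (edgeR adjusted p = 0.0237 against macrophages alone and 0.0233 against control corpses). Both calls were lost without STC1OE library 2, the first also without STC1OE or macrophages-alone library 1, and the second without STC1OE library 4 or control library 3 or 4. Bub1, the kinase that recruits it, averaged 8.61 ± 1.19, 9.15 ± 0.789 and 8.01 ± 0.647 CPM and passed in no comparison.

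Cdc20 and Ube2c, the activator and the E2 enzyme of the anaphase-promoting complex, fell with both kinds of corpse. Cdc20 went from 5.97, 5.27, 4.97 and 5.31 CPM in macrophages alone to 4.48, 4.55, 4.48 and 4.32 CPM with control corpses and 4.29, 4.22, 4.04 and 3.93 CPM with STC1OE corpses. The 3 groups did not overlap, though the 2 corpse groups did not differ by the test (edgeR adjusted p = 0.532). The log2 fold changes against macrophages alone were -0.27 ± 0.09 and -0.38 ± 0.09 (SE; edgeR adjusted p = 0.0142 and 0.000737), and the first was lost without macrophages-alone library 1. Ube2c stood at 5.73, 4.52, 4.65 and 4.24 CPM in macrophages alone, at 4.2, 4, 2.91 and 3.64 CPM with control corpses and at 4.2, 2.63, 3.18 and 3.49 CPM with STC1OE corpses. Both corpse groups lay just below macrophages alone, with log2 fold changes of -0.37 ± 0.13 and -0.50 ± 0.13 (SE; edgeR adjusted p = 0.0237 and 0.00305). The first was lost without control library 3 or 4 or macrophages-alone library 1. Cdc20 and Ube2c overlap exons of Elovl1 and Tnnc2, so reads shared with those genes may have gone uncounted or miscounted.

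The centromere and kinetochore held the largest declines. All 6 of its members were lower with STC1OE corpses than in macrophages alone, against 22.4% of all genes tested. Cenpa, the histone variant that marks the centromere (chr5:30666777-30674830), stood at 17.7, 17.6, 17.1 and 17.7 CPM in macrophages alone, at 10.7, 10.5, 11.6 and 11 CPM with control corpses and at 9.53, 9.92, 10.5 and 9.13 CPM with STC1OE corpses. The 4 libraries of macrophages alone were tightly grouped and far above all 8 corpse libraries, which overlapped. Cenpa was at 0.625 of its level in macrophages alone with control corpses, a log2 fold change of -0.68 ± 0.06, and at 0.558 with STC1OE corpses, -0.84 ± 0.06 (SE; edgeR adjusted p = 2.14e-11 and 2.11e-13). Both calls held in every setting tried. Between the corpses the test did not pass (edgeR adjusted p = 0.112).

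Cenpf, a large kinetochore and nuclear matrix protein that accumulates before mitosis (chr1:189640606-189688086), fell in steps. It was at 11.2, 10.3, 9.47 and 9.78 CPM in macrophages alone, at 8.31, 6.81, 7.87 and 6.93 CPM with control corpses and at 5.83, 5.54, 5.73 and 5.58 CPM with STC1OE corpses. No 2 groups overlapped. On the log2 scale its fold change was -0.44 ± 0.08 for control corpses and -0.84 ± 0.08 for STC1OE corpses against macrophages alone (SE; edgeR adjusted p = 2.27e-05 and 3.27e-10), and -0.40 ± 0.08 between the corpses (edgeR adjusted p = 0.00278). All 3 calls held when any one library was left out. Cenpf is long, and per kb of exon it was among the scarcest members, at 0.66 CPM per kb in macrophages alone.

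Ndc80, the core microtubule coupler of the outer kinetochore, stood at 8.7, 7.89, 6.73 and 7.15 CPM in macrophages alone, at 7.88, 6.05, 6.53 and 6.28 CPM with control corpses and at 5.09, 4.73, 5.33 and 4.91 CPM with STC1OE corpses. The STC1OE libraries lay below the 8 others, which overlapped. The log2 fold change of STC1OE corpses was -0.60 ± 0.09 against macrophages alone (SE; edgeR adjusted p = 4.16e-06) and -0.42 ± 0.09 against control corpses (edgeR adjusted p = 0.00686), the latter lost without control library 1. Its partners in the NDC80 complex were lower as well: Nuf2 went from 5.28 ± 0.477 CPM in macrophages alone to 4.48 ± 0.152 and Spc25 from 6.31 ± 0.538 to 5.03 ± 0.663 CPM with STC1OE corpses (SD, n = 4; edgeR adjusted p = 0.0344 and 0.00573). The call for Nuf2 was lost without any one of the 4 STC1OE libraries or macrophages-alone libraries 1 and 2.

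Cenpe, the kinesin that carries chromosomes to the spindle equator, was at 20.9, 17.7, 15.8 and 16.8 CPM in macrophages alone, at 18, 14.5, 16 and 15.8 CPM with control corpses and at 13.2, 12.7, 14.7 and 13.1 CPM with STC1OE corpses. The STC1OE group lay below macrophages alone in all 4 libraries, with a log2 fold change of -0.40 ± 0.08 (SE; edgeR adjusted p = 0.00031), and overlapped the control corpses.

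**Figure D3:**
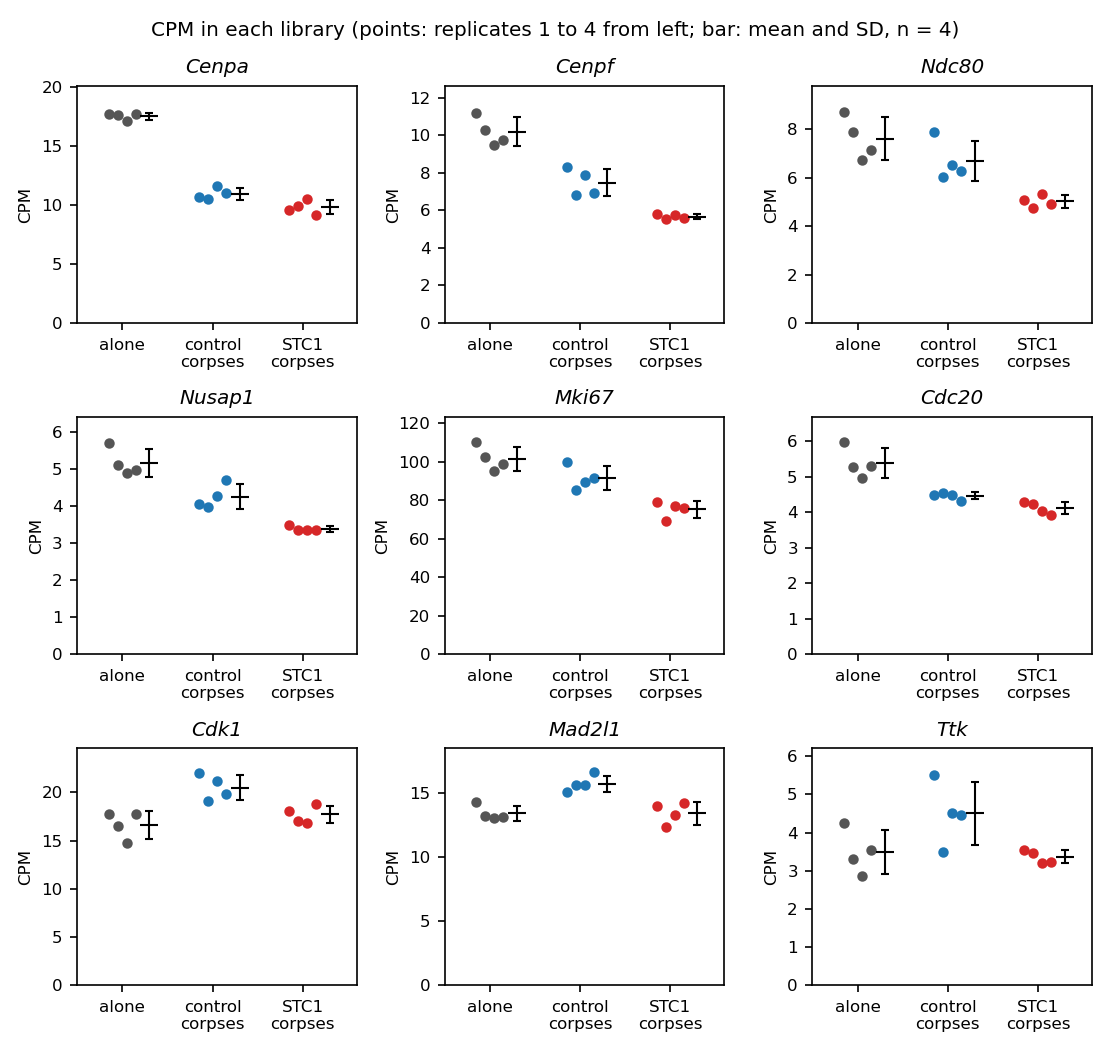
CPM (y axis, from 0) of 9 members by group (x axis); points are libraries 1 to 4 from the left, with the mean and SD of the 4 as a bar. Cenpa and Cdc20 are lower in both corpse groups, Cenpf steps down across the 3 groups, Ndc80, Nusap1 and Mki67 are lowest with STC1OE corpses, and Cdk1, Mad2l1 and Ttk have their highest means with control corpses (20.5, 15.7 and 4.5 CPM).

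Of the spindle motors and microtubule binders, Nusap1 was the one that passed the test. Nusap1, which bundles microtubules near chromatin, stood at 5.7, 5.1, 4.88 and 4.97 CPM in macrophages alone, at 4.05, 3.97, 4.26 and 4.71 CPM with control corpses and at 3.49, 3.34, 3.34 and 3.34 CPM with STC1OE corpses. No 2 groups overlapped. The log2 fold change was -0.28 ± 0.09 with control corpses and -0.61 ± 0.10 with STC1OE corpses against macrophages alone (SE; edgeR adjusted p = 0.0146 and 3.46e-06), and -0.33 ± 0.10 between the corpses (edgeR adjusted p = 0.0373). The first was lost without control library 2 or macrophages-alone library 1, and the last without any one of STC1OE libraries 2, 3 and 4 or control libraries 1, 3 and 4; DESeq2 did not call it. Nusap1 shares exon sequence with its neighbour Oip5.

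Tpx2, which activates Aurora A on the spindle, was at 19.9, 16.7, 16.3 and 15.8 CPM in macrophages alone, at 20.1, 17.3, 18.3 and 17 CPM with control corpses and at 17.5, 15.3, 15.8 and 18.7 CPM with STC1OE corpses, and the groups overlapped. The kinesin-13 depolymerase Kif2c averaged 4.3 ± 0.488, 3.95 ± 0.593 and 3.79 ± 0.276 CPM, and the chromokinesin Kif4 averaged 6.37 ± 0.455, 6.26 ± 0.934 and 5.47 ± 0.541 CPM (SD, n = 4). Neither these nor Tpx2 passed in any comparison. Kif11, the motor that separates the spindle poles, was the lowest member per kb of exon in macrophages alone, at 0.0971 CPM per kb, and the most variable: its coefficient of variation was 33.1% in macrophages alone, 69% with control corpses and 78.8% with STC1OE corpses, against medians of 8.56, 7.23 and 6.78% over the 39. It lay at 0.357 to 3.08 CPM, and no difference between groups was detectable.

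In the central spindle and at the cleavage furrow, 5 of 6 members were lower with STC1OE corpses than in macrophages alone. Of all genes tested, 22.4% were lower in that comparison. Kif23, the motor of centralspindlin, stood at 14.7, 13.3, 13.4 and 13 CPM in macrophages alone, at 14.7, 10.3, 12 and 11.7 CPM with control corpses and at 11.4, 11.2, 12.2 and 12.1 CPM with STC1OE corpses. The STC1OE libraries lay below those of macrophages alone (log2 fold change -0.22 ± 0.08, SE; edgeR adjusted p = 0.0288), and the call was lost without STC1OE library 1 or 2 or macrophages-alone library 1. Prc1, which crosslinks midzone microtubules, went from 9.18 ± 1.1 to 6.96 ± 0.242 CPM, and Anln, the anillin that links the furrow to actin, from 13.4 ± 1.63 to 10.4 ± 1.51 CPM (SD, n = 4; edgeR adjusted p = 0.000509 and 0.00408). Kif20a, the kinesin that brings the passenger complex to the midzone, averaged 7.13 ± 0.519 CPM in macrophages alone, 6.02 ± 0.356 with control corpses and 5.31 ± 0.888 with STC1OE corpses (SD, n = 4), lower in both (edgeR adjusted p = 0.0414 and 0.000644). The first of these was lost without control library 1, 2 or 4 or macrophages-alone library 2 or 4, by DESeq2 and with a term for the replicate number.

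Cep55, which recruits the abscission machinery to the midbody, had the largest called difference of the members between the corpses. It stood at 3.63, 3.44, 3.45 and 4.15 CPM in macrophages alone, at 4.92, 3.6, 4.48 and 3.38 CPM with control corpses and at 2.93, 2.59, 3.08 and 3.1 CPM with STC1OE corpses. The STC1OE libraries lay below all 8 others, and the control-corpse libraries were spread widely. Its log2 fold change was -0.49 ± 0.12 between the corpses (SE; edgeR adjusted p = 0.0121) and -0.33 ± 0.12 for STC1OE corpses against macrophages alone (edgeR adjusted p = 0.029). The first was lost without control library 1 or 3, and the second without STC1OE library 1 or 2 or macrophages-alone library 1 or 4. Ect2, the exchange factor that activates RhoA at the furrow, averaged 8.71 ± 0.836, 9.61 ± 1.12 and 8.42 ± 0.675 CPM and passed in no comparison.

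Ki-67 and the proteins that shape mitotic chromosomes were among the 5 members with the highest CPM per kb of exon. Of these 4, 3 were lower with STC1OE corpses in either comparison. Of all genes tested, 22.4% were lower against macrophages alone and 2.12% against control corpses. Mki67, the coat of mitotic chromosomes and the usual proliferation marker, stood at 110.1, 102.4, 95.5 and 99 CPM in macrophages alone, at 100.1, 85.6, 89.5 and 91.7 CPM with control corpses and at 79.3, 69, 77.1 and 76 CPM with STC1OE corpses. All 4 STC1OE libraries lay below the 8 others, and the other 2 groups overlapped. The log2 fold change was -0.43 ± 0.06 against macrophages alone and -0.29 ± 0.06 against control corpses (SE; edgeR adjusted p = 3.86e-05 and 0.0133), the latter lost without STC1OE library 4. Per kb of exon Mki67 was also the highest member in macrophages alone, at 10.1 CPM per kb, ahead of Incenp at 9.35 and Smc4 at 9.27.

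The 2 core subunits of condensin, the ring that compacts chromosomes, moved in opposite directions with control corpses. Smc4 fell from 48.3 ± 1.12 to 42.5 ± 2.13 CPM with control corpses and stood at 36.3 ± 1.27 CPM with STC1OE corpses, with no overlap between any groups (SD, n = 4; edgeR adjusted p = 0.00018, and 2.27e-10 and 0.000398 for STC1OE corpses against macrophages alone and control corpses). All 3 calls held when any one library was left out. Smc2 rose from 40 ± 3.17 to 43.7 ± 2.43 CPM with control corpses (edgeR adjusted p = 0.0389), a call lost without control library 1 or 4 or macrophages-alone library 2 or 3. With STC1OE corpses it was at 37.5 ± 1.73 CPM, below control corpses in all 4 libraries (SD, n = 4; edgeR adjusted p = 0.00991). Top2a, the topoisomerase that untangles sister chromatids, went from 66.1 ± 5.09 CPM in macrophages alone to 56.1 ± 4.79 CPM with STC1OE corpses (SD, n = 4; edgeR adjusted p = 0.0343). That call was lost without any one of STC1OE libraries 2, 3 and 4 or macrophages-alone libraries 1, 2 and 4. With control corpses Top2a was at 68.6 ± 5.18 CPM.

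Foxm1, the transcription factor that drives many of these genes, passed in no comparison. It lay at 12.1, 9.42, 9.42 and 9.98 CPM in macrophages alone, at 12.2, 10.5, 10.6 and 11.5 CPM with control corpses and at 9.13, 7.98, 10.7 and 10 CPM with STC1OE corpses. The groups overlapped.

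**Figure D4:**
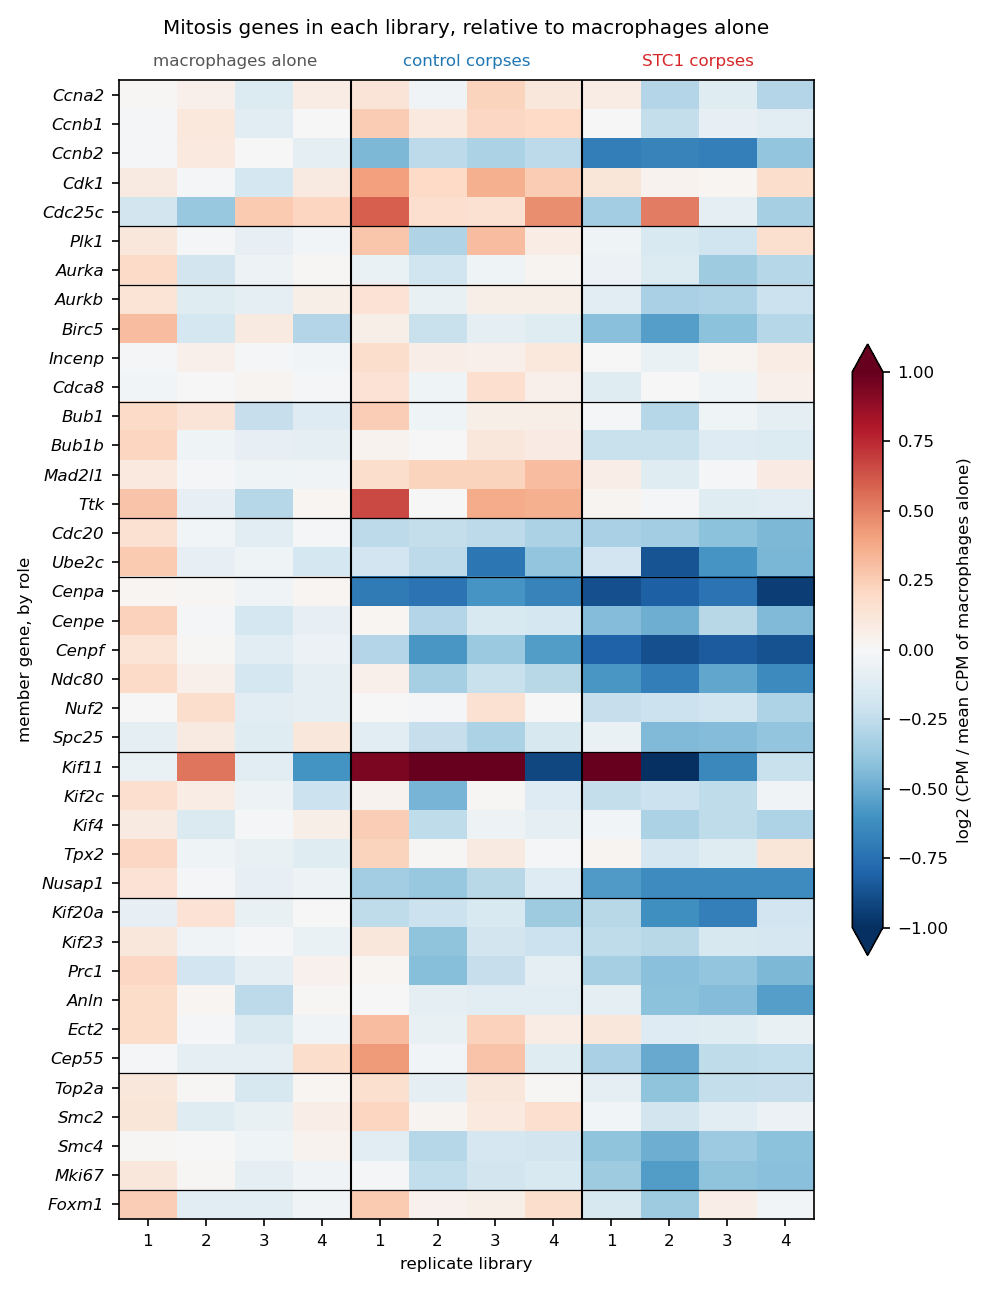
Level of each member (y axis, ordered by role) in each of the 12 libraries (x axis, replicates 1 to 4 of each group), as log2 of its CPM over its mean CPM in macrophages alone, with the colour scale ending at 1 and -1 (only Kif11 exceeds it). Blue is most frequent in the STC1OE block, the row of Cenpa is blue in both corpse blocks, and the column of library 1 is redder than its neighbours in the first 2 blocks.

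Within each group, many mitosis genes had their highest or lowest value in the same library. Library 1 held the highest value for 26 of 39 members in macrophages alone, 26 with control corpses and 19 with STC1OE corpses. Library 3 held the lowest for 21 members in macrophages alone, and library 2 for 27 with control corpses and 23 with STC1OE corpses. Over the 12 libraries, the deviations of log2 CPM from the group means had a median Pearson correlation of 0.385 over the 741 pairs of members, with 615 pairs (83%) above 0. The 30 S phase genes had a median of 0.484, with 388 of 435 pairs above 0, and all pairs of genes tested had a median of -0.000633, with 49.9% above 0. The points share a library and its depth. Over all genes tested, same-numbered libraries of different groups did not deviate together. That was not computed for the members alone, for which library 1 was most often the highest in all 3 groups. Without library 1 of every group, a setting chosen after seeing the data, 13 members were lower with STC1OE than with control corpses, 18 were lower than in macrophages alone, and 4 were higher and 7 lower with control corpses than in macrophages alone.

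The wider pathway moved in the same 3 comparisons as follows. Of other mitotic genes in 8 lists, 150 were tested. With control corpses 22 were higher and 18 lower than in macrophages alone, against 19.7% and 20.5% of all genes tested. With STC1OE corpses 17 were higher and 45 lower, against 21.4% and 22.4%, and between the corpses 1 was higher and 23 lower with STC1OE, against 3.33% and 2.12%. The median log2 fold changes were 0.02, -0.08 and -0.11, beside -0.00, -0.03 and -0.01 for all genes tested. The 17 genes of the anaphase-promoting complex and its partners, with the coactivator Fzr1, the inhibitor Fbxo5 and the E2 enzyme Ube2s among them, included 5 higher and 2 lower with either kind of corpse and 0 that passed between the corpses by edgeR, where 2 had an unadjusted p under 0.05. Of 27 other spindle and motor genes, 13 were lower with STC1OE corpses than in macrophages alone and 0 higher. Of 6 other condensin genes, 4 were lower with STC1OE than with control corpses.

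Named by size of change among those with a mean of at least 2 CPM, the other mitotic genes that differed most with control corpses were Wee1, the kinase that restrains Cdk1 (24.9 to 37.4 CPM), Cdc25a, a phosphatase that opposes it (24.2 to 32.4 CPM), and Tfdp2, a partner of E2F factors (13.1 to 8.91 CPM). Their log2 fold changes were 0.59, 0.42 and -0.55 (edgeR adjusted p = 3.32e-13, 2.48e-09 and 1.99e-07). With STC1OE corpses against macrophages alone they were Tfdp2, Ckap2 and the spindle pole protein Aspm, with log2 fold changes of -0.67, -0.64 and -0.61 (edgeR adjusted p = 5.54e-09, 0.000117 and 4.32e-06). Between the corpses they were the cohesin acetyltransferase Esco2, the centromere protein Cenpk and the kinetochore scaffold Knl1, with -0.56, -0.49 and -0.38 (edgeR adjusted p = 0.00472, 0.0135 and 0.00472). Mybl2, which encodes B-Myb, rose with control corpses from 11.4 to 14.1 CPM (edgeR adjusted p = 0.000563) and was at 12 CPM with STC1OE corpses. It was chosen after its values were seen.

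Of the 30 S phase genes, 19 were higher and 1 lower with control corpses than in macrophages alone, against 19.7% and 20.5% of all genes tested. With STC1OE corpses 11 were higher and 3 lower, against 21.4% and 22.4%. Between the corpses 18 were lower with STC1OE and 0 higher, against 2.12% and 3.33%, with a negative log2 fold change for all 30.

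**Figure D5:**
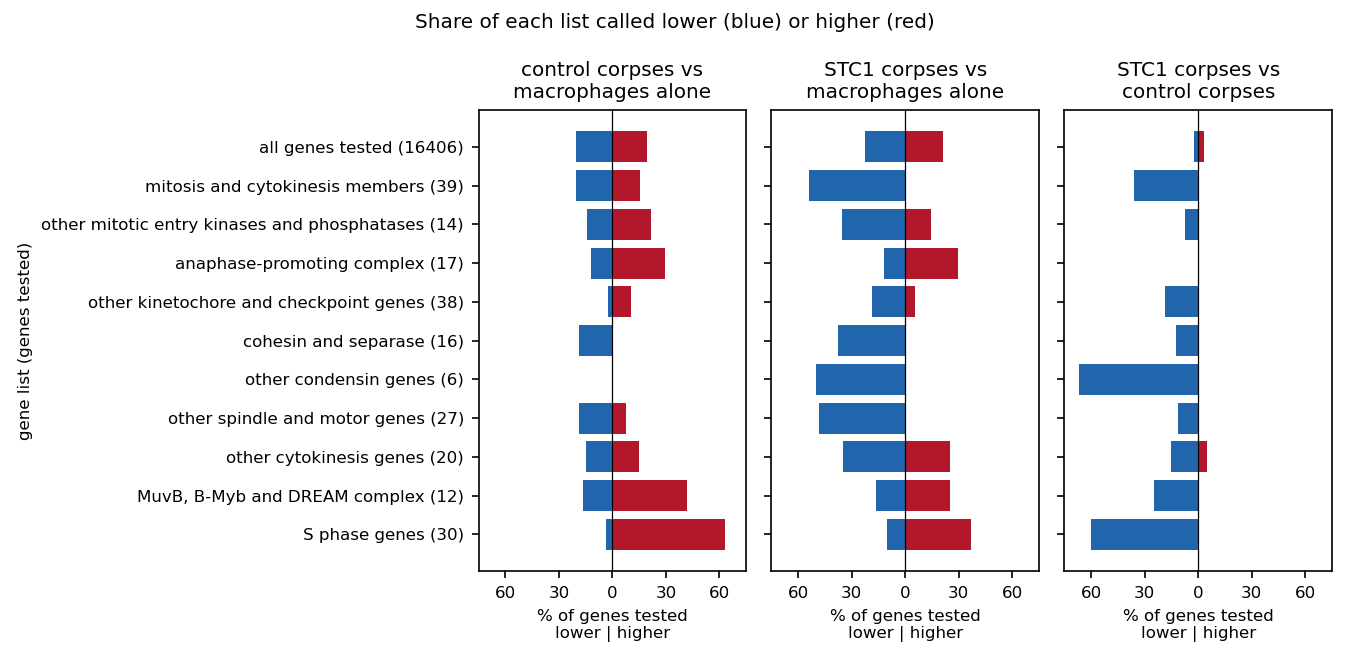
Percent of the tested genes of each list called lower (blue, left) or higher (red, right) in 3 comparisons, with the number of genes tested in parentheses on the y axis. In the right panel 14 of 39 mitosis members and 18 of 30 S phase genes are called lower, against 2.12% of all genes tested.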

How the data were processed

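RNA of 12 macrophage libraries (3 groups of 4) was sequenced as paired-end reads. The submitters' processing notes name the tools HISAT2, HTSeq and DESeq2 and the builds mm10 and GRCm38. Their versions, the strand setting and the annotation release are not given in the sources used here. The deposited values are whole-number HTSeq counts per Ensembl gene, 1 file per library. HTSeq's own summary lines were left out of library sizes. They held 11.38 to 14.01% of reads as not aligned in macrophages alone, and the other groups' shares stand in the report.

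Coordinates and exon lengths came from GENCODE M21, which has the same build. Symbols came from a separate list of gene names, matched by Ensembl identifier. The counts of all 12 libraries were fitted together in R 4.3.3 with edgeR 4.0.16: filterByExpr (minimum count 10, total 15, 16406 genes kept), TMM scaling, a mean per group, robust glmQLFit and glmQLFTest, two-sided, and Benjamini-Hochberg adjustment over all genes tested at 0.05. CPM are TMM-scaled. DESeq2 1.42.0, other scalings, no filter, fewer libraries, a replicate block and each library left out were alternatives. Over all genes tested, same-numbered libraries did not deviate together (correlations -0.0434 to 0.0912, all under 0.1), so no pairing was assumed. The members were not checked apart.

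Levels in every library are given for the 4 called members with the largest change in each comparison and for the most abundant member of each of the 10 roles. Other members are given by means, ranges or counts. The members and lists were chosen with earlier results of these data known. No p is given for summed levels. Genes with overlapping neighbours, pseudogenes or near copies (Ccnb1, Ccnb2, Kif4, Ccna2, Cdc20, Ube2c, Nusap1, Kif20a and Prc1 among them) may lose or gain reads, since the strand setting is not known.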

Additional observations from a re-analysis of the deposited data

Results flagged for a closer look

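In 120 groups of 4 libraries (39 members in 3 groups, and the summed levels), 8 held a library whose gap to the nearest of the others, as a share of the group's range, exceeded Dixon's 95% critical value. Chance gives about 1 in 20 groups. With STC1OE corpses these were Ccnb2, highest in library 4 (gap 0.927), Spc25, highest in library 1 (0.891), Kif2c, highest in library 4 (0.852), and Nusap1, highest in library 1 (0.963), where the other 3 libraries were all at 3.34 CPM. In macrophages alone they were Incenp, highest in library 2 (0.858), Bub1b, highest in library 1 (0.858), and Cenpa, lowest in library 3 (0.856). With control corpses it was Nuf2, highest in library 3 (0.931).

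The share of reads that did not align, which no comparison uses, had a mean of 16.08% with STC1OE corpses, above the 12.67% of macrophages alone and the 11.27% of control corpses.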

How the results depend on the processing

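No called member changed direction in any setting: of 1127 refits of the 49 called results, 946 kept the call and 181 missed the threshold with the same sign. Members lower with STC1OE than with control corpses numbered 14, and 0 with replicates 1 and 2 only, 14 with replicates 3 and 4 only, 2 without STC1OE libraries 3 and 4 (added after seeing the data), 7 to 17 with each library left out in turn. The median log2 fold change was -0.23 with replicates 1 and 2 only (38 of 39 negative), -0.24 with replicates 3 and 4 only (37 negative) and -0.23 without STC1OE libraries 3 and 4 (39 negative). Members higher with control corpses than in macrophages alone numbered 6, and 1 with replicates 1 and 2 only, 2 to 9 with each library left out. Members lower there numbered 8, and 4 with replicates 1 and 2 only, 5 with replicates 3 and 4 only, 5 to 12 with each library left out. The cause was not tested. The 21 members lower with STC1OE corpses than in macrophages alone numbered 14 to 24 over all settings, 15 to 22 with each library left out. With the replicate block, 6 members were higher and 8 lower with control corpses against macrophages alone. In that setting 24 were lower with STC1OE corpses against macrophages alone and 17 lower between the corpses. Over all genes tested, same-numbered libraries did not deviate together. Over all genes, the calls between the corpses moved as well, from 546 higher and 347 lower in the main fit. They became 27 and 6 with replicates 1 and 2 only, and 1298 and 627 with replicates 3 and 4 only. Without STC1OE libraries 3 and 4 they were 114 and 53. Called in every leave-one-out refit were Ccnb1, Cenpf, Smc2 and Smc4 between the corpses. The lowest value of any member in a library, 0.357 CPM, lay above the 0.105 CPM that a count of 0 allows.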
